A study of Homo sapiens with 42 samples.

Results

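The genes described here are 33 genes of the NRF2, glutathione and ferroptosis systems, read in an assay of open chromatin (ATAC-seq) of 4 EGFR-mutant lung adenocarcinoma cell lines, PC9, H1975, HCC827 and HCC2935. The members are every region whose annotated gene symbol is one of the 33: 542 of the 242490 annotated regions of the 4 tables, 198 of them PC9, 155 H1975, 67 HCC827 and 122 HCC2935 regions. Of these, 248 were annotated as promoter within 1 kb of a start site, and the remaining regions lay in introns, exons, UTRs, wider promoters or between genes, where a region carries the symbol of the nearest gene. All member regions passed the filter on low counts. For each gene and line the promoter region with the highest mean count is called its main promoter, and such a region existed for 31 PC9, 29 H1975, 26 HCC827 and 29 HCC2935 genes.

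In each line, control cells were kept for 21 days without drug and then 3 days in DMSO, the solvent. DTP cells (drug-tolerant persisters, the cells that remain under the drug) had 24 days of 500 nM osimertinib, an inhibitor of mutant EGFR. Combo cells had 21 days of 500 nM osimertinib and then 3 days of 150 nM AZD5153, a small-molecule drug. Whether osimertinib stayed in the medium for those last days is not in the labels. In PC9 and H1975 only, an AZD5153 group had 21 days without drug and 3 days of 150 nM AZD5153. The 14 groups hold 3 libraries each, 42 in all, which the labels call biological triplicates. All 14 groups are cells of 1 of these established lines, and the DTP group is what survived treatment, so selection of cells and change within cells cannot be told apart.

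NRF2, encoded by NFE2L2, is the transcription factor of the response to oxidants and electrophiles. KEAP1 holds it in the cytoplasm and delivers it for degradation, and when KEAP1 is modified NRF2 accumulates, pairs with small MAF proteins such as MAFG and binds antioxidant response elements (AREs) near genes of glutathione synthesis, the thioredoxin system, NADPH supply, quinone and carbonyl reduction and iron handling. Glutathione is the co-substrate of GPX4, which reduces lipid hydroperoxides, and loss of that activity leads to ferroptosis, an iron-dependent cell death. Persister cells are known for a dependence on GPX4.

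The promoters of 6 members whose changes are described later are shown. Windows of 300 bases, 250 before and 50 from the start site, come from RefSeq on GRCh38.p14, given 5′ to 3′ on the gene's strand. Capitals mark the ARE core TGACNNNGC, searched on both strands.
GCLM, chr1:93909381-93909680, minus strand: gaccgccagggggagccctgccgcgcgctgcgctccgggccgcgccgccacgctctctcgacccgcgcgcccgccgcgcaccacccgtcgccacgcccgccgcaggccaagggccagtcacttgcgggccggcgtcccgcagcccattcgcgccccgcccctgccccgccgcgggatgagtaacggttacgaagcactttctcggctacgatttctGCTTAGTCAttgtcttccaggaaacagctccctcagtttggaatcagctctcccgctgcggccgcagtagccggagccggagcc
GPX2, chr14:64942696-64942995, minus strand: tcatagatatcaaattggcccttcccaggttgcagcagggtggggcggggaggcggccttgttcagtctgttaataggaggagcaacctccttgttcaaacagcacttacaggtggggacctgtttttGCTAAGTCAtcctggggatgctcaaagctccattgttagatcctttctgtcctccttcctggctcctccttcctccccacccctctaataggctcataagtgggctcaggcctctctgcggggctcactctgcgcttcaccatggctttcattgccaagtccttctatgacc
TXNRD1, chr12:104286782-104287081, plus strand: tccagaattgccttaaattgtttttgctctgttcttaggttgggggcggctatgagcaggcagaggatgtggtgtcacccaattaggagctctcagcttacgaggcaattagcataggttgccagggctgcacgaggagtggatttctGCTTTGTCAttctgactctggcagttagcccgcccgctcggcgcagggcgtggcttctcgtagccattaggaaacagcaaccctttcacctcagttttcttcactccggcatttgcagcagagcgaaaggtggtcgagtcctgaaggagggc
ME1, chr6:83431002-83431301, minus strand: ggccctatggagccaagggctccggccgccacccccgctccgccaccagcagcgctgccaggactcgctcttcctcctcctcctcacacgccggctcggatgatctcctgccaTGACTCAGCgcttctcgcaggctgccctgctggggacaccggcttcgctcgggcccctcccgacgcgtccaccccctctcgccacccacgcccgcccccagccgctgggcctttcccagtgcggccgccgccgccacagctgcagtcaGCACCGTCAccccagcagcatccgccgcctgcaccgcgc
KEAP1, chr19:10502722-10503021, minus strand: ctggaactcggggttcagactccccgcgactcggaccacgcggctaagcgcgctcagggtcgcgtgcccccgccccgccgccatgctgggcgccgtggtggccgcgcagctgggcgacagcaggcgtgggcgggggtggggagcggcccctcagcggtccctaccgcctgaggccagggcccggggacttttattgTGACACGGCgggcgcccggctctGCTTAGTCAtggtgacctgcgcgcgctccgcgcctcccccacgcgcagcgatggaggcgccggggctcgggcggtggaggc
FTL, chr19:48965059-48965358, plus strand: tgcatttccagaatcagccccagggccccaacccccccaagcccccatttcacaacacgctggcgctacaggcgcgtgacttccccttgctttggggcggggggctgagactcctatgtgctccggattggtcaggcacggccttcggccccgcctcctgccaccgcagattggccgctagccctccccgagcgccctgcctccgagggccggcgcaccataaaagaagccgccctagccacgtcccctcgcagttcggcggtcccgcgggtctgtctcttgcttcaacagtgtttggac
A window was held for 27 of the 33 members, 37 windows in all. The ARE core was present in 11 of these 37 windows and in 13.3% of all 34943 windows. The AP-1 motif TGANTCA, which can lie inside a longer ARE and is read by another family of factors, was present in 4 of the 37 and in 7.72% of all windows. GCLM, GPX2, TXNRD1, ME1 and KEAP1 each held at least 1 ARE core, and FTL held none in this window. The TXNRD1 window does not overlap chr12:104286041-104286542, the TXNRD1 promoter region whose fall in DTP cells is described below. It lies at another start of the gene, that of the main promoter in H1975 and HCC827, where the DTP change was not called. A match is a run of letters and was not tested for binding.

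The depth of a library, as the sum of its counts, was 3989287 to 5193390 for PC9, 6200672 to 10062505 for H1975, 1724680 to 4242868 for HCC827 and 3968690 to 8066287 for HCC2935. Libraries of 1 group differed in PC9 and H1975 by little more than counting noise: the variance of their differences was 0.959 to 1.04 and 0.966 to 1.22 times that of Poisson counts, against 1.21 to 8.76 in HCC827 and 1.18 to 1.83 in HCC2935. The spread between the 3 libraries of a PC9 or H1975 group may therefore be technical, so the calls of these lines were also made after the 3 libraries were summed to 1 and the dispersion was taken from HCC2935, and a named call that was lost that way is given as lost. All 5 epithelial markers (EPCAM, KRT8, KRT18, KRT19, CDH1) had a promoter region in every line, and of the 6 markers of blood, endothelial and stromal cells 2, 3, 0 and 2 had one in the lines taken in that order (PC9, H1975, HCC827, HCC2935). In DTP cells 1 epithelial marker promoter rose and 1 fell in PC9, 1 rose and 2 fell in H1975, and 0 rose and 1 fell in HCC2935. In the H1975 AZD5153 group and in HCC2935 DTP and combo cells whole stretches of chromosomes moved together against control. A regional value beside a change of these groups is the log2 fold change after removal of the median change of the surrounding 10 Mb. In bulk cells, a change in the number of cells with an open region and a change within each cell cannot be told apart.

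In DTP cells the calls at regions of the 33 genes outside promoters were mostly falls. Of the 120 member regions of PC9 outside promoters, 57 fell and 10 rose at an adjusted p under 0.05 (edgeR quasi-likelihood test, n = 3 libraries a group), where 29.3% and 17.5% of all such regions did. The median log2 fold change was -0.42 for the members and -0.15 for all regions tested. In H1975, 47 of 81 fell and 8 rose, against 44.9% and 25.2% of all, with medians of -0.53 and -0.21. In HCC2935, 23 of 66 fell and 13 rose, against 26.9% and 25.0% of all, with medians of -0.18 and 0.00. At promoters, 10 of 78 member regions rose and 9 fell in PC9 (background 15.3% and 10.8%), 12 of 74 rose and 14 fell in H1975 (26.7% and 23.2%), and 11 of 56 rose and 11 fell in HCC2935 (20.5% and 12.4%). Over all annotated member regions of HCC2935 24 rose and 34 fell in DTP cells, and 20 and 30 did once regional medians were removed. With the libraries summed, 13 member regions of PC9 rose and 42 fell, where 19.5% of all regions were called in either direction, and 8 rose and 47 fell in H1975, where 40.3% were called. These shares, and those beside later summed counts, are over all regions tested, 126506 in PC9 and 191202 in H1975. They include regions without a gene annotation, which all members have, so they are not shares of like regions.

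In HCC827 no member region was called in any comparison by edgeR (0 of 67) or by DESeq2. The count at an unadjusted p under 0.05 was 3 for DTP against control, 0 for combo against DTP and 7 for combo against control. Over all 82309 regions of that line the called share was 0.0267%, 0.0% and 0.068%. With the replicate number as a block, 1, 0 and 4 member regions were called, against 3.59%, 0.0158% and 5.5% of all regions, so HCC827 is given below as values.

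EPHX1, the microsomal epoxide hydrolase of xenobiotic metabolism, held one of the largest falls. Its intronic region chr1:225813418-225813919, 3006 bases inside the gene, stood at 18.1, 20.3 and 21.2 CPM (the count scaled to the library's depth) in the 3 PC9 control libraries and at 3.70, 3.31 and 3.61 in DTP. In HCC2935 it fell from 18.7, 21.0 and 15.0 to 3.95, 3.73 and 3.56 CPM. All DTP libraries of both lines lay below all controls. The log2 fold change was -2.49 ± 0.184 (SE) in PC9 (adjusted p = 5.33e-35; 4.08e-15 with libraries summed) and -2.28 ± 0.211 in HCC2935 (adjusted p = 4.51e-12, regional value -2.28). In H1975 the overlapping region carried no gene annotation and was lower throughout, 3.32, 4.21 and 4.94 CPM in control and 1.37, 1.42 and 1.30 in DTP. In HCC827 control libraries spanned 2.19 to 8.16 CPM and DTP libraries 3.27 to 6.07, which overlap. A second intronic region of EPHX1, chr1:225817504-225818005, fell in the same 3 lines by 1.11, 0.89 and 1.38 on the log2 scale in PC9, H1975 and HCC2935 (regional value in the last -1.38). The main promoter of EPHX1 was not called in any of the lines.

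HMOX1 encodes heme oxygenase, which frees iron from heme. Its intergenic region chr22:35364180-35364681, 15680 bases upstream of the start, fell from 13.2, 11.2 and 13.9 CPM to 2.53, 2.90 and 1.61 in PC9 DTP cells. In H1975 it fell from 24.2, 21.2 and 21.6 to 4.80, 3.45 and 3.30 CPM, and in HCC2935 from 21.8, 20 and 16.0 to 12.6, 10.2 and 9.38 CPM. The groups did not overlap in these 3 lines, with log2 fold changes of -2.43 ± 0.227, -2.54 ± 0.135 and -0.86 ± 0.176 and adjusted p-values of 6.88e-23, 1.11e-46 and 0.000132 (regional value in HCC2935 -0.74). In HCC827, DTP libraries held 5.54, 6.53 and 15.5 CPM and control libraries 5.01, 5.59 and 8.16. The main promoter of HMOX1 stayed between 17.2 and 22.1 CPM in control and DTP libraries of PC9 and H1975 and was not called in DTP cells of any line. Of the regions of HMOX1 outside its main promoter, 6 of 6 fell in H1975, 2 of 5 in PC9 and 1 of 3 in HCC2935, beside the 44.9%, 29.3% and 26.9% of all regions outside promoters given above.

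GSR, glutathione reductase, regenerates reduced glutathione with NADPH. An intronic region of GSR, chr8:30698406-30698907, fell from 12.3, 12.5 and 9.88 CPM to 0.457, 0.405 and 0.499 in H1975 DTP cells (log2 fold change -4.62 ± 0.255, adjusted p = 2.4e-44). It fell by 1.77 ± 0.349 in PC9 and by 1.05 ± 0.311 in HCC2935 on the log2 scale (adjusted p = 7.03e-06 and 0.00643). The HCC2935 libraries held 7.22, 5.99 and 2.37 CPM in control and 3.32, 2.35 and 2.10 in DTP, which overlap, and the regional value was -1.53. In HCC827 the DTP libraries held 0.461, 0.544 and 2.25 CPM and the controls 2.82, 8.38 and 5.53, which did not overlap but were not called. At the main promoter of GSR the lines parted: H1975 fell from 22.4, 23.4 and 24.3 CPM to 14.5, 17.2 and 16.2 (log2 fold change -0.55 ± 0.0958, adjusted p = 2.01e-07), PC9 was not called, and HCC2935 rose from 10.7, 10.7 and 7.37 to 15.2, 13.7 and 11.6 (0.47 ± 0.177, adjusted p = 0.0309). The HCC2935 value was -0.0038 once the regional median was removed, and the call was lost with DESeq2.

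TXNRD1, thioredoxin reductase, which keeps thioredoxin reduced, had the most regions of any member in all 4 lines. Of its regions other than the main promoter, 17 of 31 fell in PC9 DTP cells and none rose, and 13 of 16 fell in H1975 and none rose (29.3% and 44.9% of all regions outside promoters fell). In HCC2935, 5 of 11 fell and 1 rose (26.9% and 25.0% of all), and in HCC827 0 of 8 were called. These counts include promoter regions other than the main one, as TXNRD1 had 5 promoter regions in PC9 and 4 each in H1975 and HCC2935. The shares beside them are of regions outside promoters only. Of all promoter regions 10.8%, 23.2% and 12.4% fell in PC9, H1975 and HCC2935. The intronic region chr12:104277354-104277855 held 14.7, 11.6 and 12.7 CPM in PC9 control and 7.20, 5.59 and 5.02 in DTP. In H1975 the same site went from 11.6, 12.4 and 11.9 to 1.83, 4.16 and 2.30 CPM, and in HCC2935 from 8.14, 9.23 and 10.5 to 4.90, 6.49 and 2.10 CPM. Control and DTP libraries were apart in all 3 lines, with log2 fold changes of -1.11 ± 0.181, -2.10 ± 0.168 and -1.01 ± 0.261 (regional value in HCC2935 -1.09). The main promoter of TXNRD1 in PC9, which begins 39 bases after an annotated start, fell by 0.59 ± 0.123 (adjusted p = 2.21e-05, 24.7, 23.9 and 20.8 CPM against 15.4, 17.6 and 12.9), a call lost with libraries summed (adjusted p = 0.0589). That same region was lower in H1975 and HCC2935 too (log2 fold changes -1.44 and -0.97, the latter with a regional value of -1.05), but there another start of the gene was the more open one, and at that start the change in DTP cells was not called.

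**Figure D1:**
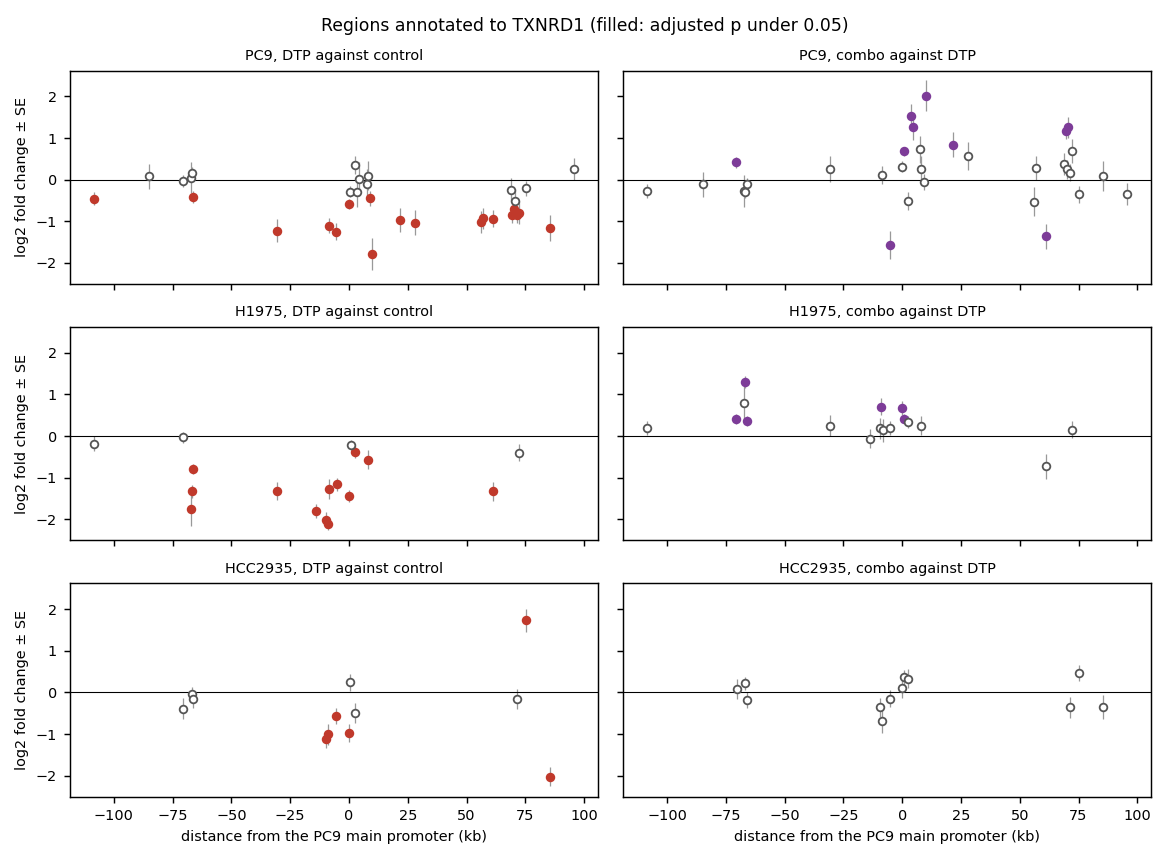
Log2 fold change (y axis, bars are SE) of every region annotated to TXNRD1 by distance in kb from its PC9 main promoter (x axis), for DTP against control and combo against DTP in PC9, H1975 and HCC2935, 3 libraries a group. Most DTP values lie below 0 (17 of 31 other regions called lower in PC9 and 13 of 16 in H1975), and combo values against DTP spread on both sides of 0.

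Of the 60 member regions outside promoters matched in all 4 lines, 6 fell in DTP cells of PC9, H1975 and HCC2935 alike (7.58% of 25283 matched regions did): 2 of EPHX1, 2 of TXNRD1, and 1 each of HMOX1 and GSR. Regions without a match in HCC827 are not in these counts. Another 2 rose in all 3 (3.7% of all). One lay 1508 bases upstream of NFE2L2, chr2:177266331-177266832, and went from 4.83, 5.07 and 5.16 CPM to 9.54, 8.90 and 7.83 in PC9 (log2 fold change 0.80 ± 0.207, adjusted p = 0.00093). In HCC2935 it went from 6.66, 11 and 6.05 to 17.6, 15.5 and 15.0 CPM (1.03 ± 0.189, adjusted p = 2.46e-05, regional value 0.89). In H1975 this site was nearly closed in controls, 0.00, 0.00 and 0.482 CPM, and stood at 2.52, 2.84 and 2.80 in DTP. The other lay in the 3′ UTR of AKR1C1, an aldo-keto reductase, chr10:4981928-4982429, with log2 fold changes of 1.37, 1.62 and 0.58 in PC9, H1975 and HCC2935 (regional value in the last 0.73). AKR1C1, AKR1C2 and AKR1C3 are genes of similar sequence, and no source used here says how reads that fit more than 1 of them were counted, so their values are uncertain. Of the 55 matched member promoters, 0 rose in DTP cells of all 3 lines and 1, the TXNRD1 region above, fell (1.79% and 1.86% of 19454 matched promoters).

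**Figure D2:**
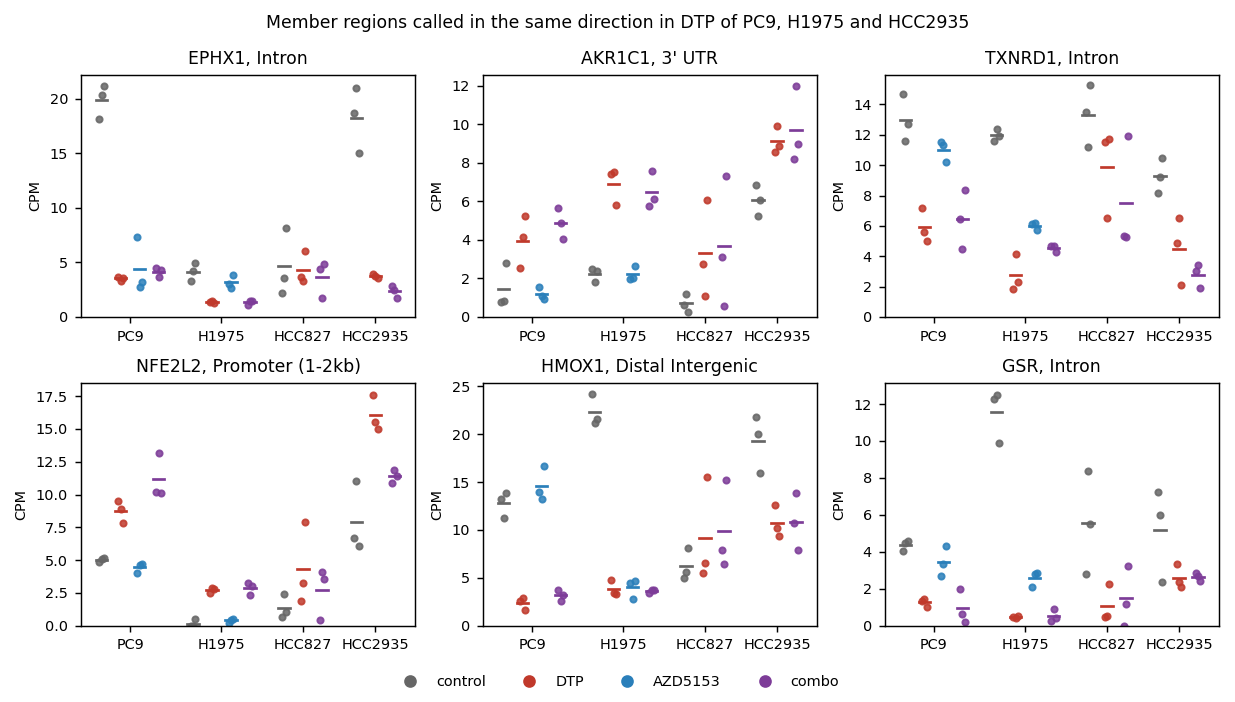
CPM per library (points, y axis from 0) and group means (bars) of 6 regions in control, DTP, AZD5153 and combo cells of the 4 lines. The regions of EPHX1, TXNRD1, HMOX1 and GSR are lower in DTP than in control libraries of PC9, H1975 and HCC2935, with no overlap except at GSR in HCC2935 (3.32 CPM in a DTP and 2.37 in a control library), and those upstream of NFE2L2 and in the 3′ UTR of AKR1C1 are mostly higher.

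At main promoters in DTP cells 2 rose and 4 fell of 31 in PC9 (median log2 fold change -0.11), where 13.8% and 10.2% of the main promoters of all genes did. In H1975 1 rose and 8 fell of 29 (-0.15; 19.6% and 27.1% of all), and in HCC2935 6 rose and 4 fell of 29 (0.01; 21.4% and 10.2%). With regional medians removed, the HCC2935 rises of TALDO1, UGDH and GSR stood at -0.02, -0.06 and -0.0038. Those of GPX2, TXN and FTL stayed positive, with values given below. Among the regulators, NFE2L2 fell by 0.23 ± 0.0936 in PC9 (adjusted p = 0.0464), a call lost with libraries summed, and MAFG fell by 0.60 ± 0.115 in H1975, from 15.8, 16.2 and 15.5 to 12, 8.82 and 10.8 CPM (adjusted p = 2.54e-06). KEAP1 was not called in any line.

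Of the 4 genes of glutathione synthesis and cystine uptake, GCLM, the modifier subunit of glutamate-cysteine ligase, fell in 2 lines. In H1975 it went from 14.7, 15.1 and 13.7 CPM to 10.4, 8.61 and 8.69, with no overlap (log2 fold change -0.66 ± 0.12, adjusted p = 6.45e-07; 0.014 with libraries summed). In PC9 it went from 26.2, 28.6 and 29.0 to 20.6, 20.5 and 23.9 CPM (-0.37 ± 0.108, adjusted p = 0.00327), a call lost with libraries summed. In HCC2935 it held 9.99, 8.24 and 7.63 CPM in control and 8.54, 9.53 and 7.60 in DTP. A weaker region just inside GCLM, chr1:93908595-93909096, moved the other way in PC9, from 4.83, 3.65 and 3.57 to 9.93, 13.4 and 9.04 CPM (1.44 ± 0.21, adjusted p = 4.63e-10). GCLC, the catalytic subunit, fell in H1975 from 19.8, 23.0 and 18 to 13.3, 16.9 and 16.9 CPM (-0.36 ± 0.101, adjusted p = 0.0013), a call lost with libraries summed. SLC7A11 and SLC3A2, the chains of the cystine transporter xCT, were not called in DTP cells of any line.

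Among the 5 genes of glutathione use and reduction, GPX2, the gastrointestinal glutathione peroxidase, rose in HCC2935 DTP cells from 6.11, 8.24 and 5.00 CPM to 11.5, 13.7 and 14.6 (log2 fold change 1.04 ± 0.203, adjusted p = 6.28e-05, 1.43 with the regional median removed). PC9 held 5.59, 4.46 and 3.77 CPM in control and 3.5, 4.55 and 4.42 in DTP, and the H1975 region stayed between 0.401 and 1.33 CPM in all groups. GPX4, the lipid hydroperoxide reductase, was not called in DTP cells of PC9, H1975 or HCC2935, and its levels lay between 26.9 and 46.8 CPM there and in the controls. In the thioredoxin system, the TXN main promoter rose by 0.58 ± 0.111 in H1975 (adjusted p = 1.99e-06). In HCC2935 another region was its main promoter, which rose by 0.58 ± 0.128 (adjusted p = 0.000336, regional value 0.41). H1975 control libraries held 13.4, 11.3 and 13.5 CPM and DTP libraries 13.6, 21.4 and 21.4, of which the first lay just above the controls.

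In NADPH supply, ME1, malic enzyme, fell in H1975 from 20.5, 20.4 and 19.8 CPM to 12.4, 11 and 13.7 (-0.71 ± 0.105, adjusted p = 1.01e-09). TALDO1, transaldolase of the pentose phosphate pathway, fell in PC9 from 29.8, 31.0 and 30.0 to 12.8, 11.8 and 16.5 CPM (-1.14 ± 0.118, adjusted p = 8.25e-19). That region lies 815 bases upstream of an annotated start of the gene. In H1975 the most open region was one at another start of the gene, and it was not called. In HCC2935 the upstream region rose by 0.54 ± 0.138 (adjusted p = 0.00167), and the value was -0.02 with the regional median removed. Of the carbonyl reductases, AKR1B10 had an annotated main promoter only in H1975, where it fell from 9.54, 10.6 and 10.5 to 2.86, 1.42 and 1.70 CPM (-2.38 ± 0.19, adjusted p = 2.32e-26), the largest fall of a main promoter in DTP cells of the 4 lines. NQO1, the quinone reductase and a standard NRF2 target, had the highest mean CPM of these main promoters in control cells of PC9, H1975 and HCC2935. Its control and DTP libraries held 47.0 CPM or more in these lines, and it fell in HCC2935 DTP cells (-0.27 ± 0.0926, adjusted p = 0.019, regional value -0.28), a call lost with DESeq2.

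FTL and FTH1 encode the light and heavy chains of ferritin, which stores iron. FTL rose in PC9 DTP cells from 19.3, 19.9 and 20.4 CPM to 26.5, 21.1 and 25.3 (0.29 ± 0.114, adjusted p = 0.039), a call lost with libraries summed, and in HCC2935 from 10.2, 11.5 and 13.7 to 14.2, 15.3 and 19.7 (0.49 ± 0.167, adjusted p = 0.017, regional value 0.44), a call lost with DESeq2. FTH1 fell in HCC2935 from 24.2, 22.2 and 20.3 to 13.9, 14.4 and 13.3 CPM (-0.69 ± 0.146, adjusted p = 0.000192), and by 0.09 once the regional median was removed. Both genes have processed copies elsewhere in the genome, and no source used here says how reads that fit several places were counted. Of the 3 ferroptosis and other genes, ACSL4 (which loads polyunsaturated fatty acids into lipids), AIFM2 (the ubiquinone reductase FSP1) and OSGIN1, none was called at its main promoter in DTP cells of any line.

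**Figure D3:**
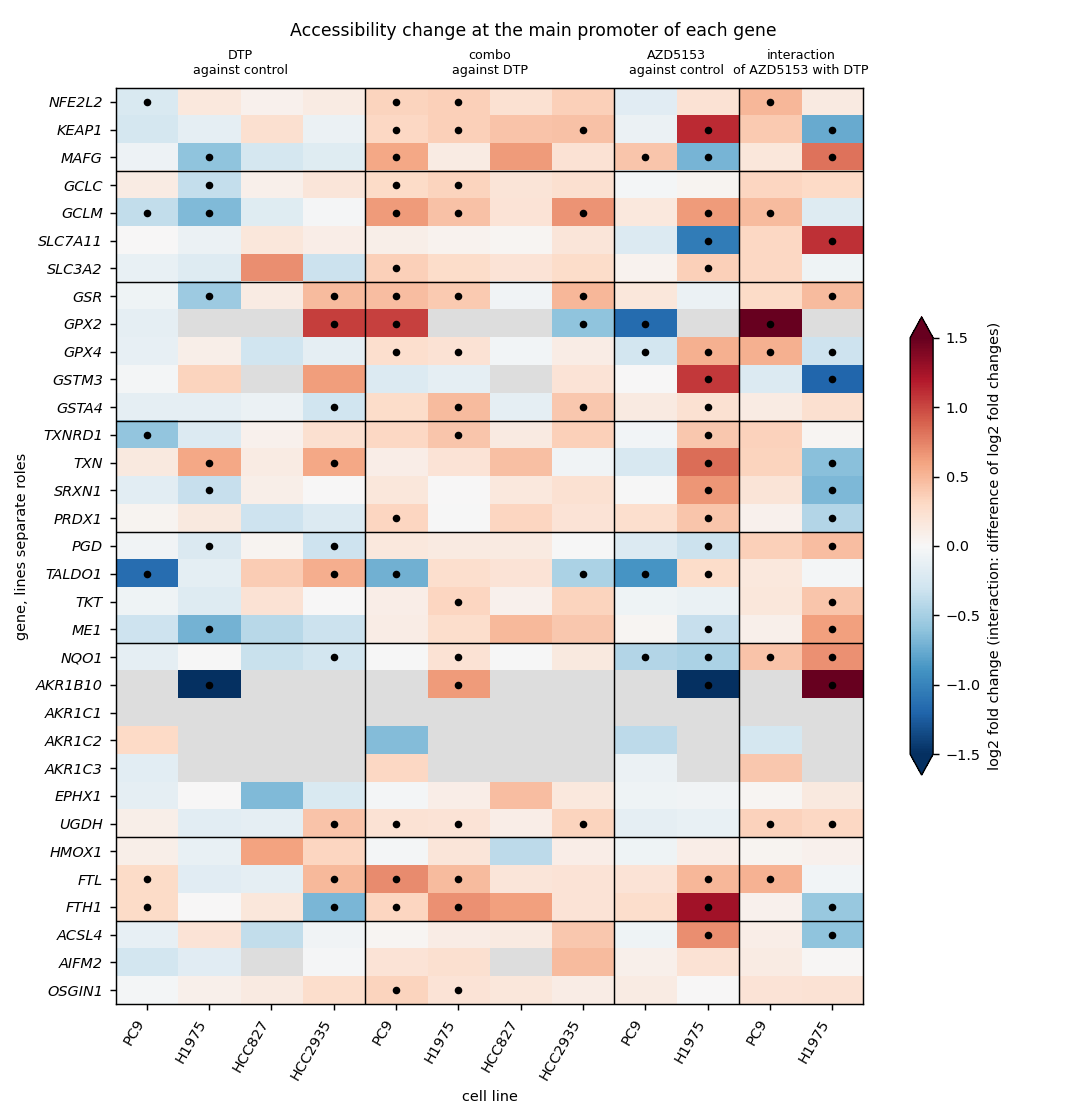
Log2 fold change at the main promoter of each member (rows, grouped by role), in columns for each line's DTP cells against control, combo cells against DTP, AZD5153 cells against control and the interaction, colour limited at 1.5 in either direction, black dots for an adjusted p under 0.05 and grey where a line has no main promoter. Combo against DTP is mostly on the higher side (14 of 31 called higher in PC9 and 15 of 29 in H1975, beside 23.9% and 38.0% of the main promoters of all genes), and HCC827 has no dots.

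The change in DTP cells was compared between the 4 lines at the regions matched in all of them (edgeR test of the line by DTP term, 3 degrees of freedom), and it differed at 56 of 123 member regions, where 37.3% of all matched regions did. That share is over 81122 matched regions, including those without a gene annotation, which the members all have. Of the 27 regions that were a main promoter in PC9, 6 were called. In 21 of the 27 the matched region was the main promoter of all 4 lines, and 3 of those were called (FTH1, GSR and UGDH). For FTH1 the log2 fold changes in the joint fit were 0.34 (PC9), 0.06 (H1975), 0.13 (HCC827) and -0.75 (HCC2935), with an adjusted p of 0.00362. For GSR they were -0.01, -0.49, 0.09 and 0.42 (adjusted p = 0.011), and for UGDH 0.14, -0.1, -0.14 and 0.38 (adjusted p = 0.0263). With regional medians removed within each line, an alternative chosen after seeing the data, the HCC2935 values became -0.21, 0.01 and 0.03, and the adjusted p became 0.308 for FTH1, 0.0435 for GSR and 0.437 for UGDH. The FTH1 and UGDH differences between lines were thus not called without the regional shifts.

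The other 3 calls lay at regions of TALDO1, TXNRD1 and GPX2 that were the main promoter in PC9 and not in H1975 or HCC827, nor, for TXNRD1, in HCC2935. The TALDO1 region 815 bases upstream of an annotated start changed by -1.09, -0.07, -0.5 and 0.49 in the lines taken in the same order (adjusted p = 6.39e-07; 0.000445 with regional medians removed, when HCC2935 stood at -0.09). The TXNRD1 region changed by -0.54, -1.37, -0.29 and -1.02 (adjusted p = 0.00755 and 0.00478) and that of GPX2 by -0.08, -0.09, -0.26 and 0.98 (adjusted p = 0.0428 and 0.00214).

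AZD5153 given to DTP cells was followed by more rises than falls at these promoters, as at promoters at large. Against DTP, 19 of 78 member promoter regions rose and 4 fell in PC9 (17.4% and 9.39% of all promoters), 27 of 74 rose in H1975 (28.0%) and 6 of 56 rose and 2 fell in HCC2935 (6.83% and 2.89%). In H1975 no member promoter region fell by edgeR, at an unadjusted p under 0.05 or by DESeq2 (6.48% of all fell by edgeR). The median log2 fold change was 0.15 in PC9, 0.22 in H1975 and 0.18 in HCC2935, beside 0.08, 0.16 and 0.18 over all promoters. At main promoters 14 of 31 rose and 1 fell in PC9 (23.9% and 7.15% of the main promoters of all genes), 15 of 29 rose and 0 fell in H1975 (38.0% and 4.75%), and 5 of 29 rose and 2 fell in HCC2935 (8.02% and 2.03%), with median log2 fold changes of 0.25, 0.24 and 0.22. Of the 5 epithelial markers, 4 rose in PC9 in the same comparison, 2 in H1975 and 1 in HCC2935, with medians of 0.58, 0.19 and 0.08. Of the other cell types' markers 0 of 2, 0 of 3 and 0 of 2 rose, and the part of these markers in the member values was not tested. Outside promoters, 21 of 120 rose and 19 fell in PC9 (14.4% and 16.6%), 16 of 81 rose and 5 fell in H1975 (18.4% and 13.0%), and 1 of 66 rose and 10 fell in HCC2935 (2.7% and 12.4%). With libraries summed, 15 member regions rose and 11 fell in PC9 and 10 rose and 1 fell in H1975, where 8.15% and 6.05% of all regions were called. Of the 15 main promoters called in either line, 2 in PC9 (GPX2 and FTL) and 1 in H1975 (FTH1) were still called when summed, and DESeq2 called 0 member promoter regions in HCC2935.

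By role, all 3 regulators (NFE2L2, KEAP1 and MAFG) rose in PC9 combo cells against DTP, and 3 of 4 genes of glutathione synthesis and cystine uptake, 3 of 5 of glutathione use and reduction and 2 of 3 of heme and iron did so. In H1975 the numbers were 2 of 3, 2 of 4, 3 of 4 and 2 of 3. In HCC2935 they were 1 of 3, 1 of 4, 2 of 5 and 0 of 3, and 1 gene of glutathione use and reduction fell. At the 4 NADPH supply genes 0 rose and 1 fell in PC9, 1 rose in H1975, and 0 rose and 1 fell in HCC2935. In the thioredoxin system 1 of 4 rose in PC9, 1 of 4 in H1975 and 0 of 4 in HCC2935. In quinone, carbonyl and xenobiotic metabolism 1 of 5, 3 of 4 and 1 of 3 rose in the lines in that order. Of the 3 ferroptosis and other genes 1, 1 and 0 rose. With libraries summed, none of the PC9 calls of regulators, glutathione synthesis or cystine uptake was kept. Of the PC9 and H1975 calls in these counts only GPX2 and FTL in PC9 and FTH1 in H1975 were kept. The shares over the main promoters of all genes are those given above.

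The main promoters of GCLM, KEAP1, UGDH and GSR were higher in combo than in DTP cells in PC9, H1975 and HCC2935 alike: 4 of 55 matched member promoters were, against 1.8% of all, and 0 were lower in all 3 (0.37%). For GCLM the combo libraries held 37.2, 32.2 and 31.7 CPM in PC9, 12.5, 12.1 and 12.7 in H1975 and 11.9, 15.7 and 13.1 in HCC2935, each above every DTP library of its line given earlier. Its log2 fold changes were 0.64 ± 0.102, 0.44 ± 0.121 and 0.67 ± 0.174, with adjusted p-values of 4.46e-08, 0.00328 and 0.00958. In HCC827 it held 26.8, 16.9 and 32.1 CPM in DTP and 21.6, 24.7 and 40.6 in combo, which overlap. The GSR promoter reached 22.5, 21.3 and 26.6 CPM in PC9 combo cells, 22.2, 20.6 and 20.2 in those of H1975 and 18.6, 19.4 and 19.3 in those of HCC2935. The differences from DTP were 0.46 ± 0.119, 0.39 ± 0.0953 and 0.50 ± 0.148 on the log2 scale, and they lay apart from the DTP libraries in these 3 lines. KEAP1 and UGDH, the latter an enzyme that makes UDP-glucuronate, rose by less, 0.31, 0.36 and 0.44 for KEAP1 and 0.22, 0.21 and 0.33 for UGDH. None of these rises in PC9 and H1975 was called with libraries summed, and none of those in HCC2935 was called by DESeq2. Outside promoters, 0 member regions rose and 0 fell in all 3 lines, where 0.534% and 1.08% of all did.

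At the FTL promoter the PC9 combo libraries held 40.7, 37.1 and 41.8 CPM, all above the DTP libraries, with a log2 fold change of 0.71 ± 0.0949 against DTP (adjusted p = 3.73e-11; 0.028 with libraries summed) and of 1.00 ± 0.102 against control (adjusted p = 5.89e-20). Against control it was also higher in H1975 and HCC2935, by 0.30 ± 0.119 and 0.70 ± 0.164 (adjusted p = 0.026 and 0.000554), and the H1975 call was lost with libraries summed (adjusted p = 0.339). The HCC2935 value is without removal of regional medians. FTH1 rose in H1975 from 8.12, 11 and 10.2 CPM in DTP to 17.3, 14.4 and 16.2 in combo (0.69 ± 0.114, adjusted p = 3.13e-07; 0.048 with libraries summed). GPX2 rose in PC9 to 9.79, 8.30 and 7.07 CPM (1.02 ± 0.217, adjusted p = 7.75e-05; 0.015 with libraries summed) and fell in HCC2935 to 9.32, 9.20 and 7.59 CPM (-0.60 ± 0.177, adjusted p = 0.0247), a pair of changes with opposite signs whose difference was not tested. The HCC2935 fall was not called by DESeq2. TALDO1 fell further in PC9, to 9.01, 7.24 and 8.57 CPM (-0.72 ± 0.162 against DTP, adjusted p = 0.000182), a call lost with libraries summed (adjusted p = 0.0664).

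**Figure D4:**
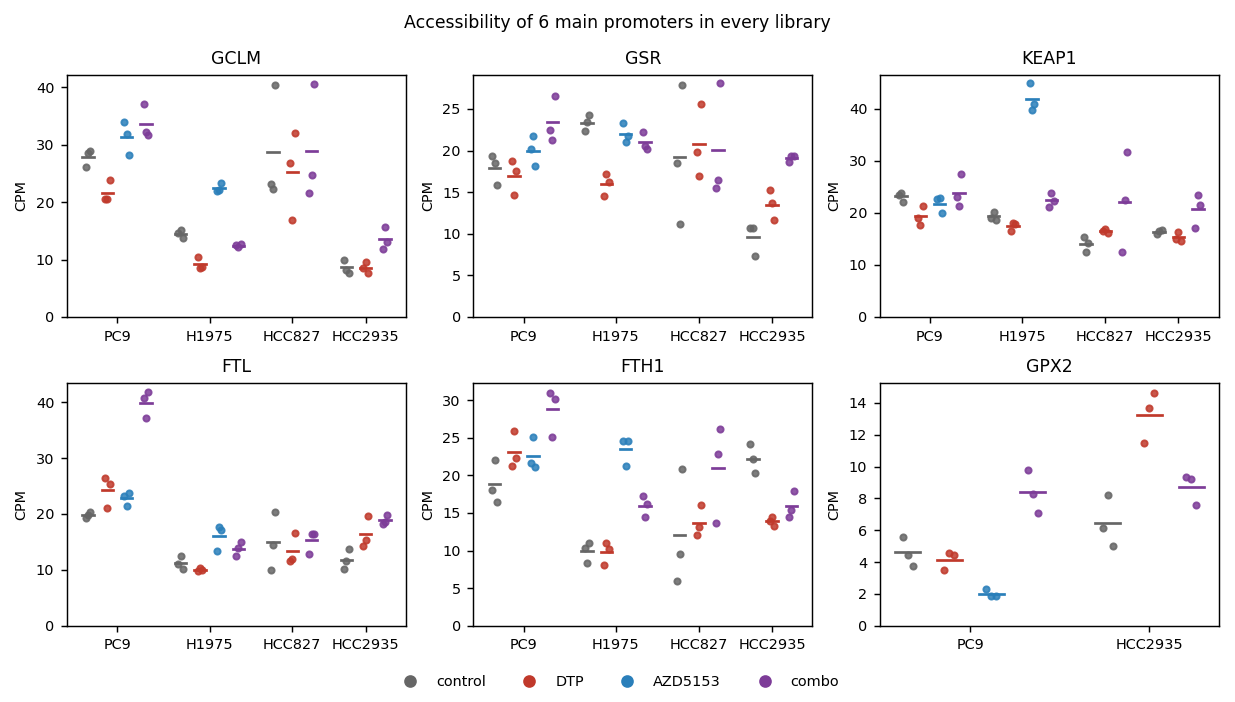
CPM per library (points, y axis from 0) and group means (bars) at the main promoters of GCLM, GSR, KEAP1, FTL, FTH1 and GPX2 in the groups of each line. The 3 PC9 combo libraries of FTL, at 37.1 to 41.8 CPM, stand above all other PC9 libraries, and the H1975 AZD5153 libraries of KEAP1, at 39.8 to 45.0 CPM, stand above all other H1975 libraries.

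The combo groups measured against control share their controls with the DTP comparison. At promoters 24 of 78 member regions rose and 9 fell in PC9 (30.1% and 16.1% of all), 31 of 74 rose and 8 fell in H1975 (42.7% and 17.6%), and 16 of 56 rose and 8 fell in HCC2935 (37.8% and 11.6%). Outside promoters 23 of 120 rose and 59 fell in PC9 (23.8% and 35.1%), 12 of 81 rose and 42 fell in H1975 (28.0% and 43.3%), and 12 of 66 rose and 28 fell in HCC2935 (25.7% and 32.1%). With libraries summed, 24 rose and 47 fell in PC9 (33.8% of all called) and 22 rose and 36 fell in H1975 (44.3%). Over all annotated member regions of HCC2935 28 rose and 36 fell, and 30 and 32 did once regional medians were removed. Regional values of single HCC2935 changes are not given here. In all 3 lines, 3 of the matched member promoters rose (FTL, OSGIN1 and the inner GCLM region, 8.81% of all) and 1 fell (2.44%). The FTL rise in H1975 and the OSGIN1 rises in PC9 and H1975 were lost with libraries summed. Outside promoters 2 rose in all 3 lines (4.85%) and 10 fell (9.73%). The intronic region of EPHX1 stood in combo cells at 4.51, 3.62 and 4.29 CPM in PC9 and 2.84, 2.45 and 1.73 in HCC2935, and the upstream region of HMOX1 at 3.72, 2.56 and 3.22 in PC9 and 3.4, 3.68 and 3.71 in H1975. None of these 4 was called against DTP. At TXNRD1, 8 of 31 other regions rose and 2 fell in PC9 combo cells against DTP, 5 of 16 rose in H1975, and 0 of 11 were called in HCC2935.

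AZD5153 without osimertinib was measured in 2 lines. In PC9, 10 of 78 member promoter regions rose and 6 fell (10.4% and 12.2% of all), and outside promoters 13 of 120 rose and 44 fell (17.3% and 22.3%). With libraries summed 12 rose and 31 fell (14.1% of all called). At main promoters 1 rose and 4 fell of 31 (8.04% and 13.1% of those of all genes). GPX2 fell from 5.59, 4.46 and 3.77 CPM to 2.31, 1.86 and 1.88 (-1.16 ± 0.3, adjusted p = 0.00102), NQO1 from 52.9, 55.6 and 56.2 to 42.5, 39.5 and 39.9 (-0.44 ± 0.0767, adjusted p = 3.68e-07), a call lost with libraries summed, and TALDO1 fell by 0.88 ± 0.111 on the log2 scale. MAFG was the one that rose (0.42 ± 0.131, adjusted p = 0.00903), also a call lost with libraries summed. The EPHX1 intronic region fell by 2.18 ± 0.171, to 7.30, 2.78 and 3.2 CPM. The upstream region of HMOX1 held 14.0, 13.2 and 16.7 CPM, which overlaps the controls, and was not called.

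In H1975, 37 of 74 member promoter regions rose and 17 fell with AZD5153 alone (43.8% and 24.4% of all), and outside promoters 21 of 81 rose and 44 fell (20.4% and 54.1%). With libraries summed, 43 rose and 48 fell (48.3% of all called). The promoters of all 5 epithelial markers fell in the same libraries, by a median of 1.17 on the log2 scale, as did those of 3 of 3 markers of other cell types, and their part in these values was not tested. At main promoters 14 of 29 rose and 6 fell (41.9% and 25.0% of those of all genes), and 12 of these 20 calls were kept with libraries summed. Over all annotated member regions 58 rose and 61 fell, and 43 and 68 did once regional medians were removed. FTH1 rose from 10.4, 8.29 and 11 CPM to 24.6, 21.2 and 24.6 (1.26 ± 0.112, adjusted p = 1.61e-22, 0.54 with the regional median removed). KEAP1 rose from 19.1, 20.2 and 18.7 to 45.0, 39.8 and 40.9 CPM (1.12 ± 0.0845, adjusted p = 8.48e-29), and by 0.13 with the regional median removed. GCLM rose to 21.9, 22.2 and 23.3 CPM (0.64 ± 0.102, 0.74 with the regional median removed). SLC7A11 fell from 24.9, 23.3 and 20.4 to 11.5, 10.7 and 10.7 CPM (-1.05 ± 0.11, adjusted p = 2.14e-17, -0.69 with the regional median removed). AKR1B10 fell to 1.04, 0.933 and 1.33 CPM (-3.17 ± 0.224, adjusted p = 1.26e-31, regional value -2.66). The HMOX1 upstream region fell to 4.50, 2.80 and 4.69 CPM (-2.42 ± 0.137, regional value -2.66).

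The interaction asks whether combo against DTP differed from AZD5153 against control. The labels do not say whether osimertinib stayed during AZD5153. An effect of its removal therefore cannot be told apart from that of AZD5153, here and in combo against DTP. In PC9, 10 of 78 member promoter regions had a positive interaction and 1 a negative one (9.16% and 4.51% of all), and outside promoters 26 of 120 and 3 (12.0% and 10.7%). With libraries summed the numbers were 8 and 1 (4.84% of all called). At main promoters 7 of 31 were positive and 0 negative by edgeR (13.6% and 3.03% of those of all genes), and 13 and 0 were at an unadjusted p under 0.05. DESeq2 called none negative. Of the 5 epithelial markers, 3 had a positive interaction, with a median of 0.41. The largest was GPX2, 2.18 ± 0.37 on the log2 scale (adjusted p = 5.11e-07; 0.00048 with libraries summed), which fell with AZD5153 in control cells and rose in DTP cells. In H1975, 17 of 74 promoter regions were positive and 24 negative (25.6% and 26.7%), and outside promoters 39 of 81 and 16 (48.3% and 15.9%). With libraries summed the numbers were 38 and 21 (31.0% of all called), and with regional medians removed 70 and 23, beside 56 and 40 without. At main promoters 9 of 29 were positive and 8 negative (29.6% and 21.3% of those of all genes), of which AKR1B10, SLC7A11, MAFG and GSTM3 were kept with libraries summed. All 5 epithelial markers had a positive interaction in these libraries (median 1.33), and their part was not tested. AKR1B10 had the largest interaction of a main promoter, 3.81 ± 0.349 (adjusted p = 5.04e-21), and SLC7A11 had 1.10 ± 0.143 (0.72 with the regional median removed).

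**Figure D5:**
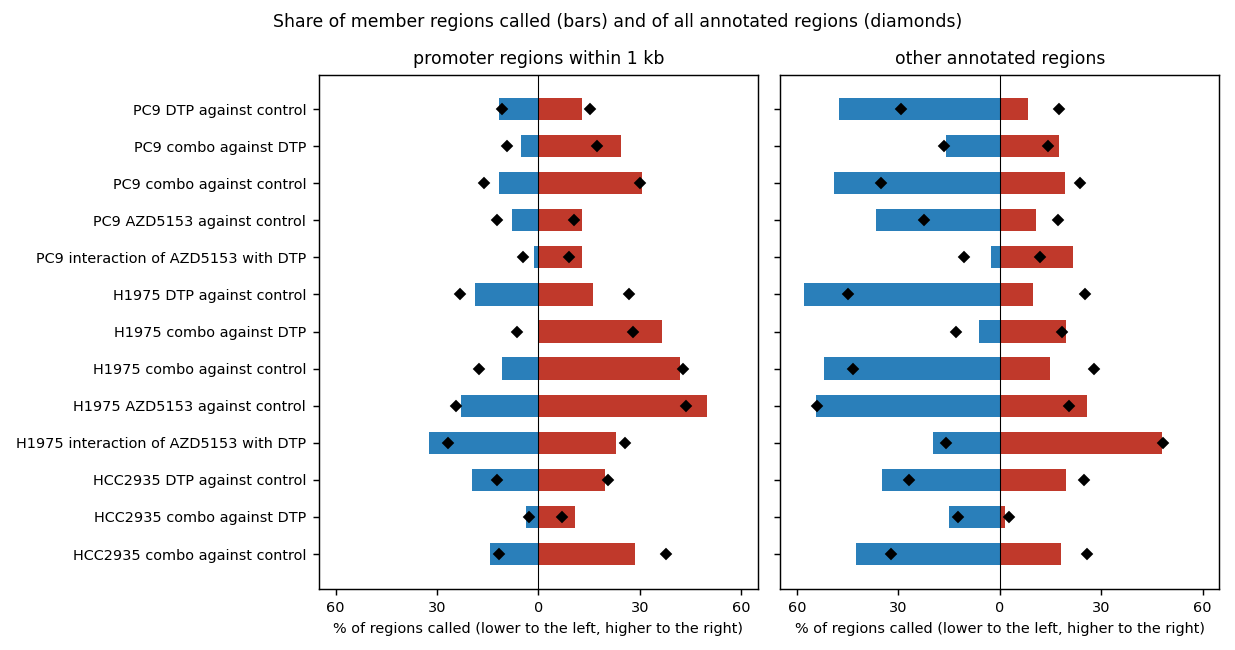
Percent of regions called at an adjusted p under 0.05 (x axis, lower to the left of 0 and higher to the right) among the member regions (bars) and among all annotated regions (diamonds), by line and comparison (y axis), for promoters within 1 kb and for other regions. At promoters, 19 of 78 member regions and 17.4% of all rose in PC9 combo cells against DTP, and outside promoters 57 of 120 and 29.3% fell in PC9 DTP cells.

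The genes around these members were read from 2 further lists. Of 40 other NRF2 and redox genes, 35 had a main promoter in PC9 and in H1975 and 33 in HCC2935. In DTP cells 4 rose and 5 fell in PC9, 6 and 8 in H1975, and 4 and 7 in HCC2935, while in combo against DTP 10 rose and 1 fell, 14 rose and 0 fell, and 2 rose and 1 fell. The shares of main promoters of all genes called in the same comparisons are those given above for the members. GLRX, glutaredoxin, fell in DTP cells of PC9 by 0.68 ± 0.129 and in H1975 by 1.34 on the log2 scale, and it then parted between the lines: against DTP it fell in combo cells of PC9 by 0.58 ± 0.159 and of HCC2935 by 0.55 ± 0.181, and rose in those of H1975 by 0.57 ± 0.129 (adjusted p = 0.00287, 0.0485 and 0.000271). The PC9 and H1975 calls in combo cells were lost with libraries summed, and the difference between lines was not tested. MGST1, a microsomal glutathione transferase, fell in PC9 DTP cells by 0.71 ± 0.115, and BLVRA, biliverdin reductase, rose by 0.77 ± 0.181. SQSTM1, which encodes the KEAP1-binding protein p62, fell in PC9 with AZD5153 alone by 0.89 ± 0.103 and had an interaction of 1.39 ± 0.128 (adjusted p = 2.82e-22). Of 21 other ferroptosis genes, 19 had a main promoter in each of the 3 lines, and in DTP cells 1 rose and 0 fell in PC9, 1 and 8 in H1975, and 3 and 4 in HCC2935. In combo against DTP 6 rose and 2 fell in PC9, 8 and 2 in H1975, and 2 and 1 in HCC2935. SCD, the stearoyl-CoA desaturase, fell in PC9 combo cells by 1.09 ± 0.171, and HSPB1, a small heat shock protein, fell there by 1.41 ± 0.293 and in HCC2935 by 0.67 ± 0.104. SLC40A1, the iron exporter ferroportin, rose by 0.46 ± 0.158 in PC9, a call lost with libraries summed, and by 0.45 ± 0.138 in HCC2935.

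The libraries' own peak lists were read as well. Main promoters were chosen for their high counts in the same libraries, so overlap with a peak is not independent support. In PC9 all 31 main promoters overlapped a peak in every control, DTP and combo library, and 30 did in every AZD5153 library. In H1975 28 or 29 of 29 did so in each group, in HCC2935 27 to 29 of 29, and in HCC827 18 to 21 of 26. No main promoter was without a peak in all 3 libraries of any group.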

How the data were processed

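ATAC-seq libraries of the 42 samples were read from the deposited tables, 1 per line, which hold raw counts per region of 502 bases as the authors made them, with a gene symbol for part of the regions. The deposited peak list of each library gives −log10 q-values per peak. The submitters' processing notes name BWA 0.7.17, SAMtools 1.9, deepTools 3.4, MACS2 2.2.6, featureCounts 2.0.0 and ChIPseeker 1.29.1 and the build hg38, with no role or order. The extraction text in the labels describes an H3K27ac ChIP, while titles and design name ATAC-seq.

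Counts of each line were fitted over all regions passing filterByExpr with edgeR 4.0.16 (R 4.3.3, TMM, quasi-likelihood F test, all groups in 1 fit), with Benjamini-Hochberg adjustment over all regions of the line and a threshold of 0.05. DESeq2 1.42.0, other scalings and filters, left-out libraries and regional medians over 10 Mb were alternatives. Fold changes are fitted log2 values ± SE, and CPM uses TMM library sizes. Regions were matched between lines by a reciprocal overlap of at least 50%. A peak counted with at least 1 base of overlap. Depth sets the precision of each value, and errors between libraries may be technical. The fitting code was tested on simulated data.

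The main promoter was the promoter region within 1 kb with the highest mean count. Other regions were named by rule, up to 3 largest rises and falls per comparison among called, fully separated regions above the median level, and regions called alike in 3 lines were named after their values were seen. The other lists had main promoters counted and up to 3 changes named. Members and lists were chosen with earlier results of these data known. Same-numbered HCC827 libraries deviated together (correlations of 0.261 to 0.828 between groups), and those of the other lines did not throughout (-0.074 to 0.206).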

Additional observations from a re-analysis of the deposited data

Results flagged for a closer look

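These results are differences of an effect between 2 conditions or 4 lines, each by the edgeR test of the difference itself. In PC9 the log2 interaction was positive at the main promoters of GPX2 (2.18), GPX4 (0.53), FTL (0.52), NFE2L2 (0.50), GCLM (0.48), NQO1 (0.43) and UGDH (0.35), and at regions of EPHX1 (2.40), PRDX1 (1.61) and TXNRD1 (1.5). A positive value means that combo against DTP was more positive than AZD5153 against control, not that the change was larger. The EPHX1 region went from a mean of 19.9 to 4.43 CPM with AZD5153 in control cells, and from 3.54 in DTP to 4.14 in combo cells. The interaction was negative at other regions of TXNRD1 (-2.53), SRXN1 (-1.14) and ACSL4 (-0.95). Of the PC9 main promoters, GPX2 alone was still called with libraries summed.

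In H1975, 4 of the 17 main promoters called were still called with libraries summed (AKR1B10, SLC7A11, MAFG and GSTM3). The interaction was positive at the main promoters of AKR1B10 (3.81), SLC7A11 (1.10), MAFG (0.82), NQO1 (0.69), ME1 (0.62), GSR (0.47), PGD (0.46), TKT (0.42) and UGDH (0.31). It was negative at those of GSTM3 (-1.19), KEAP1 (-0.76), SRXN1 (-0.67), TXN (-0.63), ACSL4 (-0.60), FTH1 (-0.57), PRDX1 (-0.44) and GPX4 (-0.31). With regional medians removed the value turned at KEAP1 (0.31) and FTH1 (0.21), neither called, and at GPX4 (0.56, adjusted p = 1.26e-05), and the calls of SRXN1 (-0.03), UGDH (0.01), ME1 (0.32) and GSR (0.27) were lost. Other H1975 regions were those of FTH1 (4.15 between genes and -2.89 within its wider promoter), GSR (3.42, 3′ UTR), SLC7A11 (2.94, intron) and FTL (-2.31 upstream and -2.15 in an exon).

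Between the 4 lines the DTP change differed at regions that are the main promoter in PC9. For FTH1 (adjusted p = 0.00362), GSR (0.011) and UGDH (0.0263) the matched region is the main promoter of all 4 lines. For TALDO1 (6.39e-07), TXNRD1 (0.00755) and GPX2 (0.0428) it is not. With regional medians removed the FTH1 and UGDH calls were lost (0.308 and 0.437), and the adjusted p of GSR was 0.0435.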

How the results depend on the processing

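Counts below are of member regions called. The counts with all regions and libraries were, for DTP against control, combo against DTP, combo against control, AZD5153 against control and the interaction, 86, 63, 115, 73 and 40 in PC9 and 81, 48, 93, 119 and 96 in H1975, and for the first 3 of these 58, 19 and 64 in HCC2935 and 0 each in HCC827. With a mean of at least 50 counts, which leaves fewer regions, they were 19, 12, 31, 18 and 13 in PC9, 26, 61, 72 and 54 in H1975 for the last 4 comparisons, 23, 9 and 23 in HCC2935 and 1 for HCC827 combo against control. With libraries summed they were 55, 26, 71, 43 and 9 in PC9, and in H1975 11 for combo against DTP, 58 for combo against control and 59 for the interaction. A log2 fold change of at least 1 left 38, 19, 52, 31 and 22 in PC9, 36, 7, 37, 55 and 56 in H1975, and 26, 6 and 25 in HCC2935. DESeq2 gave 32 for combo against DTP and 17 for the interaction in PC9, and 26 and 6 for combo against DTP in H1975 and HCC2935. Without a filter the PC9 interaction had 23 and HCC2935 combo against DTP 6. In HCC827 a fit to annotated regions alone called 3 for combo against control. With the replicate block, which the paired libraries of HCC827 warrant, 1 and 4 were called there for DTP and combo against control, and 225 of 227 named calls of the other lines stayed. Leaving out 1 library gave 76 to 85, 46 to 63, 98 to 113, 61 to 75 and 31 to 39 in PC9, 71 to 82, 35 to 50, 82 to 94, 110 to 117 and 87 to 96 in H1975, and 42 to 54, 9 to 22 and 46 to 62 in HCC2935. The low HCC2935 values for combo against DTP came without DTP replicate 1, 2 or 3 (11, 10 and 11) or combo replicate 2 or 3 (9 and 11). The joint test called 68 of the members without HCC827, 45 at an overlap of 80%, 63 by library size and, in an alternative chosen after seeing the data, 53 with regional medians removed, beside 56.

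Of the 227 named calls, 170 stayed with DESeq2, 189 with regional medians removed and 201 by library size, and 92 of the 180 in PC9 and H1975 stayed with libraries summed. Among these 227 calls 10 turned direction with regional medians removed, 1 with a mean of at least 50 counts and 0 by library size. The turns listed next also include values that were called only under the alternative. Directions turned with regional medians removed in H1975 for AZD5153 against control at TALDO1 (-0.23), SLC3A2 (-0.37) and GPX4 (-0.25), and for the interaction at TALDO1 (0.47), FTH1 (0.21), SLC3A2 (0.70), GPX4 (0.56), KEAP1 (0.31) and GSTA4 (-0.35). In HCC2935 they turned for DTP against control at TALDO1 (-0.02), UGDH (-0.06), SLC7A11 (-0.43) and GSR (-0.0038), and for combo against control at TALDO1 (-0.58), FTH1 (0.07) and SLC3A2 (0.53). With a mean of at least 50 counts they turned in H1975 at NQO1 (0.13, DTP against control), OSGIN1 (0.18, AZD5153 against control), TXNRD1 (-0.31, interaction) and UGDH (-0.02, interaction), and by library size at NQO1 (0.16, DTP against control). The cause was not tested. HCC827 depth and spread limit that line.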
